A study of Mus musculus with 9 samples.

Results

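A set of 10 genes for enzymes that build and cap the glycans of the T cell surface were followed in resting CD8 T cells of 3 Rop7 clones. They were taken by symbol from the 24060 genes of the expression table: the N-glycan branching enzymes Mgat1, Mgat2, Mgat4a and Mgat5, the sialyltransferases St3gal1, St3gal6 and St6gal1, the O-glycan branching enzyme Gcnt1, and B4galnt4 and Hs3st3b1. Mgat5 and St3gal6 were lower in Rop7-II than in the other clones, B4galnt4 was higher in Rop7-II, and Hs3st3b1 was higher in Rop7-III. Of the other 6 genes, Mgat1, Mgat2 and Mgat4a had no difference that passed the test, St3gal1 and St6gal1 differed by at most 1.17-fold, and Gcnt1 varied more within Rop7-II than between clones.

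N-glycans are trimmed and then branched in the Golgi, where each MGAT enzyme adds an N-acetylglucosamine that opens a new branch. MGAT5 acts late in that order, and its branch is readily extended into the lactosamine chains that galectins bind. In T cells such galectin-glycoprotein lattices are known to restrain clustering of the T cell receptor (TCR), and T cells without Mgat5 respond at a lower threshold. Sialyltransferases cap galactose ends, which, depending on the linkage, can hide them from some galectins and other lectins, and sets binding by Siglecs and selectins.

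The cells came from transnuclear mice, which were made by somatic cell nuclear transfer from a CD8 T cell, so that the 3 transnuclear strains Rop7-I, Rop7-II and Rop7-III each carry the rearranged TCR of 1 donor cell. The lines were backcrossed to BALB/c. All 3 TCRs recognise the same Toxoplasma gondii peptide of Rop7 on H-2Ld, and the clones differ in TCR sequence and in reactivity to self. Splenocytes of all groups were kept overnight without antigen in medium containing 10 ng/ml IL-2, sorted as CD3+ CD8+ H-2Ld-Rop7+ cells to a purity of 90 to 95%, and 3 biological replicates per clone were sequenced as poly(A) RNA. Because each strain descends from 1 nucleus, the TCR and any other inherited difference between the strains cannot be told apart. The study describes the cells of the expression comparisons as homozygous. Age and sex of the animals are not given in the sources used here. The labels do not say whether the replicates were separate animals. The p-values set differences between clones against the spread of these libraries within a clone, which may not be the spread between animals.

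Values are in TPM, the transcripts of a gene scaled to a common total, after correction for gene length. A gene passed where the limma p-value of a pair of clones, adjusted over all tested genes, was under 0.01, and it was called where it was also 2-fold apart. The label held in every library: 8 CD8 T cell markers summed to between 7594 and 8426 TPM and 6 NK cell markers to at most 13.9 TPM. Rop7-II replicate 1 stood apart: it had the highest level of 14 of 14 B cell markers, summed to 2458 TPM against 151 to 1051 TPM in the other 8 libraries, and of 10 of 10 myeloid markers, summed to 704 TPM against 38.3 to 261.15 TPM. The sums of a list of 10 memory-like CD8 T cell genes also differed. They were 398 to 420 TPM for Rop7-I, 296 to 345 TPM for Rop7-II and 477 to 650 TPM for Rop7-III. Not every gene of the list followed that order. Klrd1 made up most of the sum (means of 255, 178 and 373 TPM). It had its highest mean in Rop7-III, as did Ccl5 (7.74, 4.14 and 28.8 TPM), Cxcr3 (0.79, 0.343 and 4.72 TPM), Cd44, Il2rb and Itgb1. Eomes (14.1, 2.34 and 6.82 TPM), Gzmm and Tbx21 had theirs in Rop7-I, and Ly6c2 in Rop7-II (2.06, 4.51 and 3.17 TPM). Of the 9 tested genes of this list, 4 passed as higher in Rop7-III than Rop7-II, 1 in Rop7-III than Rop7-I and 1 in Rop7-I than Rop7-II. Of all tested genes 6.39%, 2.58% and 3.67% did so. In each of these pairs 0 genes of the list passed as lower. The B cell sums by clone were 402 to 1051 TPM, 192 to 2458 TPM and 151 to 319 TPM for Rop7-I, -II and -III, with no B cell marker at 0 in any library. The part of these lists in the results was not tested.

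The upstream sequences of Mgat5, St3gal6, B4galnt4 and Hs3st3b1 are printed because these 4 genes differed most between clones. Each is the 250 bases before an annotated start, from RefSeq on build GRCm38.p6, read 5′ to 3′ along the gene's strand. Capitals mark the GC box (GGGCGG) and the CCAAT box (CCAAT) on either strand. The CCAAT box was added to the search after the sequences were seen.
Mgat5, chr1:127204736-127204985, plus strand: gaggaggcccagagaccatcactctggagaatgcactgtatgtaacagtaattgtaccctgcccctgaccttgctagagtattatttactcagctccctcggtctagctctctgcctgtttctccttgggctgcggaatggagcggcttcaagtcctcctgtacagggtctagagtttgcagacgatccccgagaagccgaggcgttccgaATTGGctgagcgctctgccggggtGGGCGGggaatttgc
St3gal6, chr16:58524254-58524503, minus strand: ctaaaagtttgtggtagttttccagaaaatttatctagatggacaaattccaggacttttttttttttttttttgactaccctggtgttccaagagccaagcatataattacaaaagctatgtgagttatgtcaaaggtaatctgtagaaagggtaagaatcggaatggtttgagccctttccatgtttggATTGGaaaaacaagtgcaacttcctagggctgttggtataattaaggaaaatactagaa
B4galnt4, chr7:141060728-141060977, plus strand: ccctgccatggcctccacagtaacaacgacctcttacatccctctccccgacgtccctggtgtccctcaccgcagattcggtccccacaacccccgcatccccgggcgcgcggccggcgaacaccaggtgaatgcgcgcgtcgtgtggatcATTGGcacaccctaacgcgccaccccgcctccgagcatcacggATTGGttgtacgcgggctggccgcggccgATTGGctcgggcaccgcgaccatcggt
Hs3st3b1, chr11:63922285-63922534, minus strand: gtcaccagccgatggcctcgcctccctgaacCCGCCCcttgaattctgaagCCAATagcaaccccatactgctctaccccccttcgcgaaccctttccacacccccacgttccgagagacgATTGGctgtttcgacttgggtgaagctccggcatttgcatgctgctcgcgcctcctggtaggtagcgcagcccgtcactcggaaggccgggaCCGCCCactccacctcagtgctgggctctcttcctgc

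The sequences held 1 CCAAT box in Mgat5, 1 in St3gal6, 3 in B4galnt4 and 2 in Hs3st3b1, and 33.8% of 32851 such windows in the genome held at least 1. Since this motif was chosen on these sequences, nothing can be read from the difference, and windows of Mgat2 and St6gal1 held 1 or 2 as well. The GC box, found in 32.7% of windows, occurred in 1 place in Mgat5, in 2 places in Hs3st3b1, and not in the windows of St3gal6 and B4galnt4 shown. The windows also differed in CpG number, with 30 in B4galnt4, 17 in Hs3st3b1, 11 in Mgat5 and 1 in St3gal6, against a median of 6 over all windows. St3gal6 has 2 annotated starts with a window, and the one farther upstream is shown. The window of the other start has 16 CpG, 4 GC boxes and 0 CCAAT boxes. A match to these letters is a description of the window and not a bound site.

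All 10 genes exceeded 1 TPM in at least 1 library and were tested among 12115 genes. St6gal1 was the most abundant, above 94.9% of tested genes by mean level, followed by St3gal1 at 79.8%, Mgat1 at 77.0% and Mgat2 at 68.8%. Within each clone the libraries of these 4 genes did not overlap and kept that order. Mgat5 and Mgat4a, both at 40.0%, and St3gal6, at 37.2%, had neighbouring levels whose order changed with the clone. Hs3st3b1 at 28.7%, B4galnt4 at 15.9% and Gcnt1 at 8.73% were lowest.

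**Figure D1:**
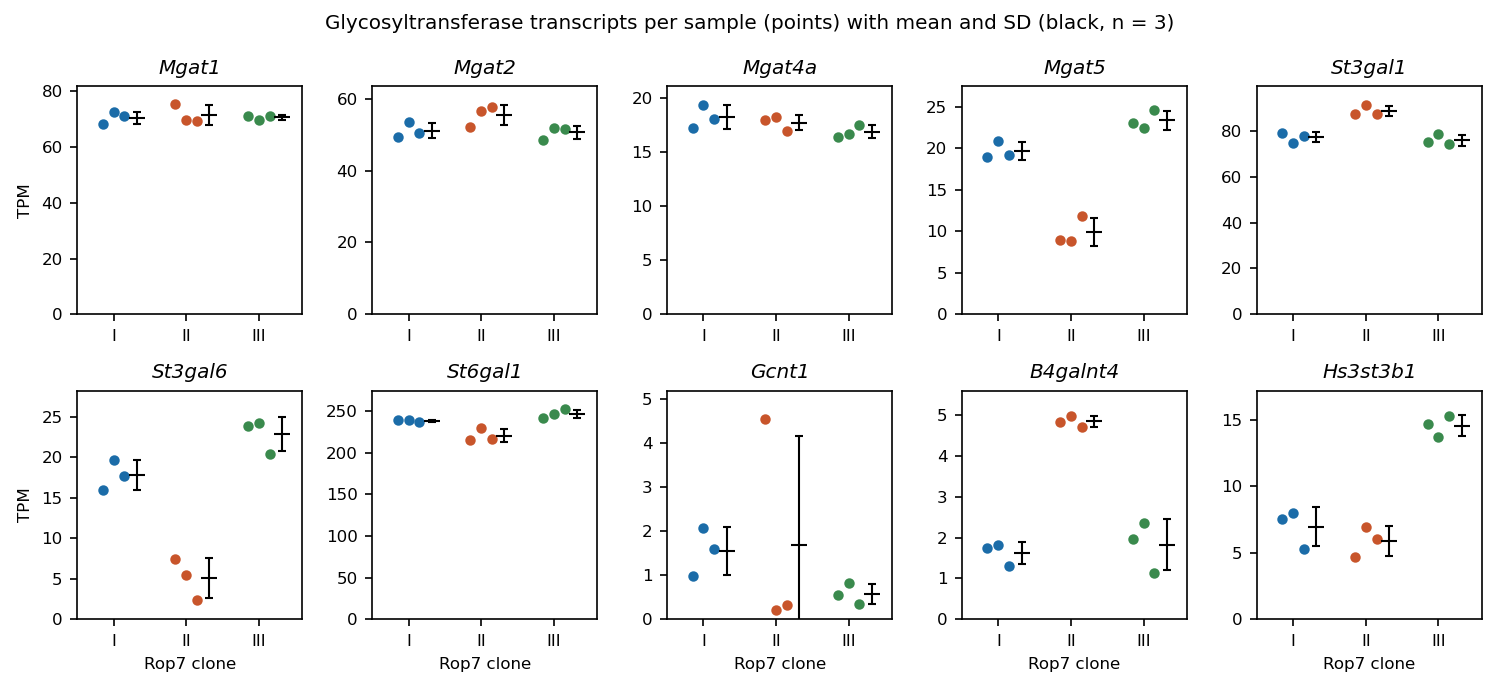
Level in TPM of each of the 10 genes in every library of Rop7-I, Rop7-II and Rop7-III, with points for libraries and bars for the mean and SD (n = 3). The Mgat5 and St3gal6 points of Rop7-II lie below all those of the other clones, B4galnt4 points of Rop7-II and Hs3st3b1 points of Rop7-III lie above them, and for Gcnt1 the SD bar of Rop7-II reaches below 0 and is cut by the axis.

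To ask whether the clones differ in N-glycan branching genes, the 4 Mgat genes were compared first. Mgat5, which makes the branch most favoured for lactosamine extension, lies at chr1:127205015-127488336 on the plus strand (GRCm38, as for all gene positions here). Its level was 18.92, 20.91 and 19.15 TPM for Rop7-I, 8.96, 8.84 and 11.87 TPM for Rop7-II, and 22.99, 22.47 and 24.62 TPM for Rop7-III. No library of any clone overlapped those of another, with Rop7-II lowest and Rop7-III highest.

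Mean Mgat5 was 23.4 ± 1.12 TPM for Rop7-III and 9.89 ± 1.72 TPM for Rop7-II (SD, n = 3), a 2.36-fold ratio of TPM. On the log2(TPM + 1) scale of the test, Rop7-III exceeded Rop7-II by 1.17 (SE 0.10, limma adjusted p = 7.09e-05). Rop7-I, at 19.7 ± 1.09 TPM, exceeded Rop7-II by 0.93 (SE 0.10, limma adjusted p = 0.000430). Rop7-III and Rop7-I differed by 0.24 (95% interval 0.01 to 0.47), which did not pass (limma adjusted p = 0.163). In these sorted populations fewer cells that express a gene and less RNA per cell cannot be told apart. Without Rop7-II replicate 1, the differences from Rop7-II were 1.11 for Rop7-III and 0.88 for Rop7-I, and both still passed. Without that library St3gal6, B4galnt4 and Hs3st3b1 also kept their calls between Rop7-III and Rop7-II, with differences of 2.35, −1.08 and 1.05, and St6gal1 no longer passed (0.15, limma adjusted p = 0.0152).

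Mgat1 at chr11:49244191-49263030 adds the branch that every hybrid and complex N-glycan needs. Its libraries ranged from 68.15 to 72.45 TPM for Rop7-I, from 69.26 to 75.51 TPM for Rop7-II and from 69.73 to 71.30 TPM for Rop7-III. All 3 ranges overlapped, and the difference of Rop7-III from Rop7-II was −0.01 with a 95% interval of −0.11 to 0.08 on the log2 scale.

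Mgat2 at chr12:69184157-69186770 opens the second arm. It measured 51.2 ± 2.12 TPM for Rop7-I, 55.5 ± 2.86 TPM for Rop7-II and 50.7 ± 1.79 TPM for Rop7-III (SD, n = 3). The libraries of Rop7-II, from 52.32 to 57.77 TPM, lay above those of Rop7-III, from 48.62 to 51.81 TPM, but the difference of −0.13 (95% interval −0.24 to −0.02) did not pass (limma adjusted p = 0.0925).

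Mgat4a at chr1:37439340-37541016 on the minus strand adds a further branch to the arm that MGAT1 starts. It was at 18.3 ± 1.09, 17.7 ± 0.676 and 16.9 ± 0.601 TPM for Rop7-I, Rop7-II and Rop7-III. The 95% interval of the difference of Rop7-III from Rop7-II was −0.20 to 0.07. Over the 3 pairs of clones, no interval of Mgat1, Mgat2 or Mgat4a reached farther from 0 than −0.24.

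Within each library the Mgat5 share of the summed TPM of the 4 branching genes gave the same picture with no scaling between libraries. The share was 12.3%, 12.6% and 12.1% in Rop7-I, 5.79%, 5.76% and 7.62% in Rop7-II, and 14.4%, 13.98% and 14.9% in Rop7-III. The clones did not overlap, and the sum itself ranged only from 153 to 166 TPM. Mgat5 was below Mgat4a in every Rop7-II library and above it in every Rop7-III library.

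**Figure D2:**
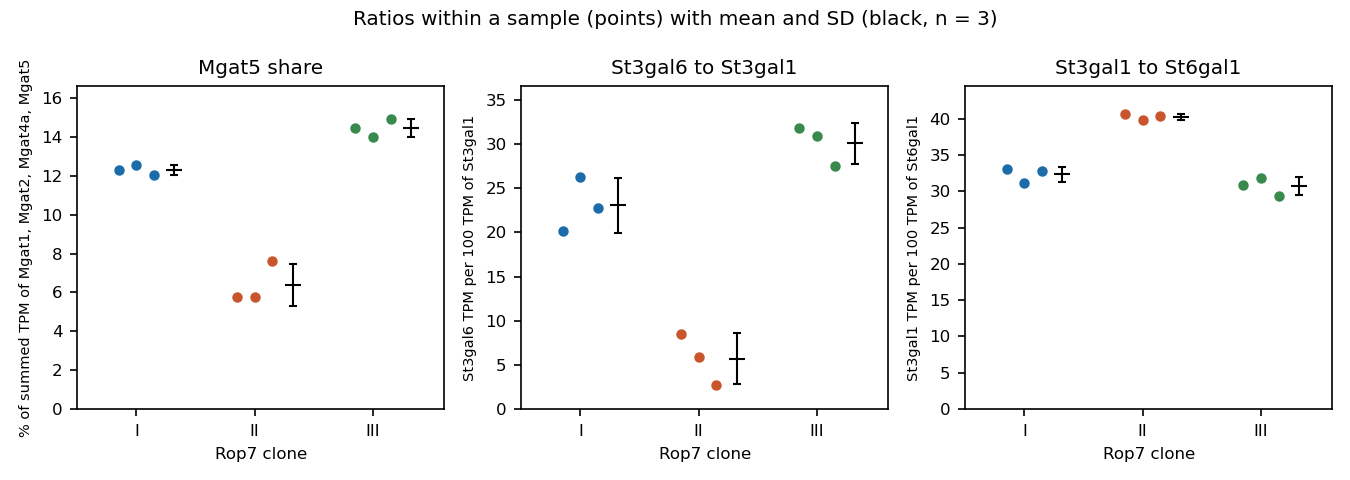
Ratios of TPM within each library of the 3 clones, with points for libraries and black bars for the mean and SD (n = 3): the Mgat5 share of the summed branching genes in percent, St3gal6 per 100 TPM of St3gal1, and St3gal1 per 100 TPM of St6gal1. Rop7-II lies apart from both other clones in each panel, lowest in the Mgat5 share (5.76 to 7.62%) and in St3gal6 per St3gal1, and highest in St3gal1 per St6gal1 (39.8 to 40.6).

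Among the sialyltransferases, St3gal6 at chr16:58468125-58524243 on the minus strand differed most. The enzyme caps lactosamine chains of glycoproteins and glycolipids and takes part in making selectin ligands. Its level was 15.92, 19.62 and 17.70 TPM for Rop7-I, 7.41, 5.40 and 2.40 TPM for Rop7-II, and 23.89, 24.27 and 20.40 TPM for Rop7-III. The libraries of the clones did not overlap, although the Rop7-II libraries spread widely.

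Mean St3gal6 was 22.9 ± 2.13 TPM for Rop7-III against 5.07 ± 2.52 TPM for Rop7-II (SD, n = 3), a 4.51-fold ratio of TPM. The difference was 2.07 on the log2(TPM + 1) scale (SE 0.27, limma adjusted p = 0.000715). Rop7-I, at 17.7 ± 1.85 TPM, exceeded Rop7-II by 1.72 (SE 0.27, limma adjusted p = 0.00288), and this call was lost without Rop7-I replicate 1, 2 or 3 (adjusted p of 0.0125, 0.0172 and 0.0132) and in a fit of the 2 clones only (0.0199). Rop7-III and Rop7-I differed by 0.35 (95% interval −0.26 to 0.95), which did not pass (limma adjusted p = 0.440).

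St3gal1 at chr15:67102875-67176830 on the minus strand caps the simple O-glycan core, a step that competes with GCNT1 and that peripheral CD8 T cells need for survival. Unlike St3gal6 it was highest in Rop7-II, with 79.05, 74.67 and 77.81 TPM for Rop7-I, 87.24, 91.30 and 87.54 TPM for Rop7-II, and 74.95, 78.55 and 74.19 TPM for Rop7-III. Every Rop7-II library was above all others, while Rop7-I and Rop7-III overlapped.

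St3gal1 was lower in Rop7-III than Rop7-II by a log2 difference of −0.22 (SE 0.04, limma adjusted p = 0.00290) and in Rop7-I than Rop7-II by −0.20 (SE 0.04, limma adjusted p = 0.00725). Both passed below 2-fold, and neither held throughout: the Rop7-I difference no longer passed on leaving out any 1 of the 9 libraries (adjusted p of 0.0103 to 0.0322), and the Rop7-III difference without Rop7-II replicate 2 or Rop7-III replicate 1 or 3 (0.0103, 0.0150 and 0.0136). In a fit of the 2 clones only the values were 0.0216 and 0.01001, and the Rop7-I difference also did not pass with a common median, quantile normalization or no trend (0.0130, 0.0140 and 0.0194). St3gal6 per 100 TPM of St3gal1 was 20.1 to 26.3 in Rop7-I, 2.74 to 8.49 in Rop7-II and 27.5 to 31.9 in Rop7-III, with no overlap.

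St6gal1 at chr16:23224740-23360350 caps N-glycans in the linkage that the B cell lectin CD22 binds. It was at 239.11, 239.80 and 237.12 TPM for Rop7-I, 214.94, 229.49 and 217.22 TPM for Rop7-II, and 242.46, 246.32 and 252.35 TPM for Rop7-III. The 3 clones did not overlap, but the ratio of Rop7-III to Rop7-II was 1.12-fold.

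The log2 difference of St6gal1 between Rop7-III and Rop7-II was 0.16 (SE 0.03, limma adjusted p = 0.00554), and it no longer passed on leaving out any library other than Rop7-II replicate 2 (adjusted p of 0.0103 to 0.0229), with no trend (0.0208) and in a fit of the 2 clones only (0.0223). Rop7-I exceeded Rop7-II by 0.11 and did not pass (limma adjusted p = 0.0356). St6gal1 is also a gene of B cells. Rop7-II replicate 1, with the most B cell marker RNA, had the lowest St6gal1 of the 9 libraries, and the part of such RNA in the St6gal1 level was not tested.

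Gcnt1 at chr19:17326141-17372844 on the minus strand branches the O-glycan core and is known to rise in activated CD8 T cells. It was near the filter, with 0.98, 2.06 and 1.59 TPM for Rop7-I, 4.53, 0.21 and 0.32 TPM for Rop7-II, and 0.55, 0.81 and 0.35 TPM for Rop7-III. One Rop7-II library, replicate 1, was the highest of all 9 and the other Rop7-II libraries were the lowest.

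The Gcnt1 difference of Rop7-III from Rop7-II was −0.41 (95% interval −1.54 to 0.73, limma adjusted p = 0.587), so that no difference was detectable at this spread. Its 5 highest libraries were, in the same order, the 5 libraries with the most summed B cell markers: Rop7-II replicate 1, Rop7-I replicates 2, 3 and 1, and Rop7-III replicate 2, with sums of 2458, 1051, 782, 402 and 319 TPM. Below these the orders parted: Rop7-III replicate 1, next in Gcnt1 at 0.55 TPM, had the lowest B cell sum of the 9 libraries, 151 TPM. The part of B cell RNA in the Gcnt1 level was not tested. Without Rop7-II replicate 1, Rop7-I exceeded Rop7-II by 0.99 against 0.28 with it (limma adjusted p = 0.0164).

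**Figure D3:**
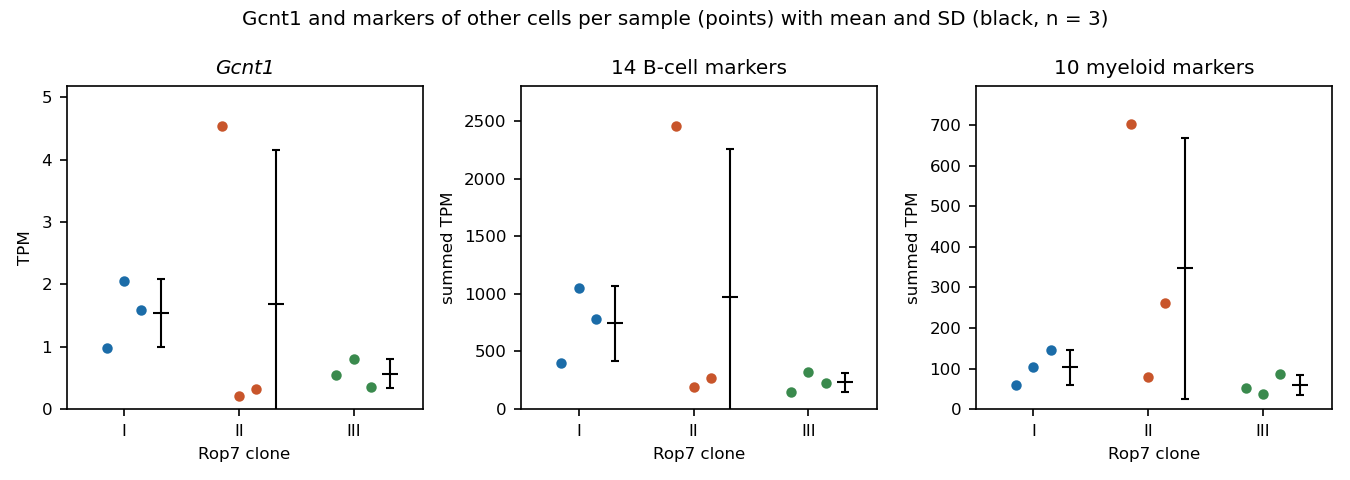
Level of Gcnt1 in TPM, and summed TPM of 14 B cell and of 10 myeloid markers, in each library of the 3 clones, with black bars for the mean and SD (n = 3). Rop7-II replicate 1 is the highest point of each panel, at 4.53, 2458 and 704 TPM, and SD bars of Rop7-II that reach below 0 are cut by the axis.

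B4galnt4 at chr7:141061104-141072400 adds N-acetylgalactosamine in place of galactose to make LacdiNAc ends. It was low, with 1.74, 1.82 and 1.30 TPM for Rop7-I, 4.84, 4.99 and 4.71 TPM for Rop7-II, and 1.97, 2.36 and 1.14 TPM for Rop7-III. The Rop7-II libraries were tight and all above the others, and Rop7-I and Rop7-III overlapped.

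B4galnt4 was 2.66-fold higher in Rop7-II than Rop7-III and 2.99-fold higher than Rop7-I as a ratio of mean TPM. On the log2(TPM + 1) scale, which understates changes of such low genes, the differences from Rop7-II were −1.08 for Rop7-III (SE 0.17, limma adjusted p = 0.00218) and −1.16 for Rop7-I (SE 0.17, limma adjusted p = 0.00222). Rop7-III and Rop7-I differed by 0.09 (95% interval −0.30 to 0.48). The Rop7-I call was lost without Rop7-I replicate 3 (adjusted p = 0.0106). The Rop7-III difference shrank to −0.89, under 2-fold, without Rop7-III replicate 3, and in a fit of the 2 clones only it did not pass (adjusted p = 0.01003).

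Hs3st3b1 at chr11:63885792-63922290 on the minus strand adds a rare sulfate to heparan sulfate, a late step on a different class of chain. It was at 7.56, 8.0 and 5.27 TPM for Rop7-I, 4.71, 6.96 and 6.06 TPM for Rop7-II, and 14.68, 13.71 and 15.32 TPM for Rop7-III. All Rop7-III libraries were above all others, and the other clones overlapped.

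Rop7-III exceeded Rop7-II in Hs3st3b1 by 1.18 (SE 0.16, limma adjusted p = 0.000761), a 2.47-fold ratio of TPM. It exceeded Rop7-I by 0.99 on the log2(TPM + 1) scale (SE 0.16, limma adjusted p = 0.00418), just under the 2-fold limit, although the ratio of TPM was 2.10-fold. Rop7-I and Rop7-II differed by 0.20 (95% interval −0.15 to 0.55). The difference from Rop7-I no longer passed when Rop7-I replicate 1 was left out (adjusted p = 0.0162) or Rop7-III replicate 1, 2 or 3 (0.0209, 0.0171 and 0.0224), and with no filter or no trend (0.0110 and 0.01001). Hs3st3a1, whose sulfotransferase domain is nearly identical, was at 0 to 0.24 TPM and was not tested, and reads shared by the pair are uncertain.

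Across the 10 genes, 4 were higher and 2 lower in Rop7-III than Rop7-II at an adjusted p under 0.01. Of all tested genes 12.3% passed, 6.39% higher and 5.89% lower. Of the 6 genes, Mgat5, St3gal6 and Hs3st3b1 (higher) and B4galnt4 (lower) were also 2-fold apart, against 1.70% of all genes (0.966% higher and 0.735% lower), and 7 of the 10 had libraries that did not overlap, against 40.7%. The genes were picked with such results known, so that these counts describe the choice. The median difference of the 10 genes was −0.04, beside −0.02 over all genes.

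Between Rop7-I and Rop7-II, 2 genes were higher in Rop7-I (Mgat5 and St3gal6) and 2 lower (St3gal1 and B4galnt4), against 7.53% of all genes (3.67% higher and 3.85% lower). St3gal6 and B4galnt4 were 2-fold apart, against 0.949% (0.437% higher and 0.512% lower). Leaving out Rop7-I replicate 3 reduced the 4 genes to 1 and the 2 to 0, leaving out Rop7-I replicate 1 or 2 reduced them to 2 and 1, and a fit of the 2 clones only also gave 2 and 1. Libraries of 5 genes did not overlap, against 35.0%. The median was 0.08, beside −0.01 over all genes.

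Between Rop7-III and Rop7-I, Hs3st3b1 alone of the 10 passed, against 4.85% of all genes (2.58% higher and 2.28% lower). By limma 0 were also 2-fold apart, against 1.06% (0.611% higher and 0.446% lower), and 2 of the 10 had an unadjusted p under 0.05. Libraries of 5 genes did not overlap, against 38.2%, and the median was 0.03 beside −0.00 over all genes. All pairs share libraries, since each clone enters 2 of them. A test of any difference among the 3 clones passed for Mgat5, Hs3st3b1, St3gal6, B4galnt4 and St3gal1, 5 of 10 against 14.1% of all genes.

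**Figure D4:**
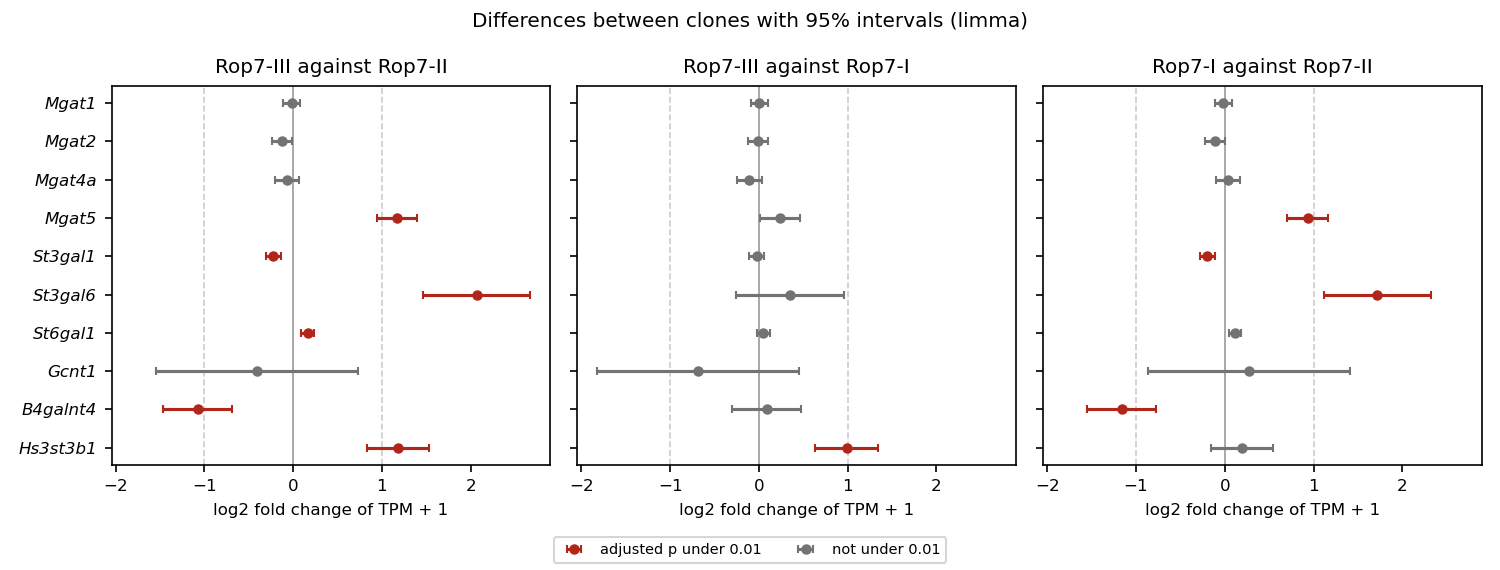
Difference in log2(TPM + 1) with its 95% interval for each of the 10 genes in the 3 pairs of clones. Mgat5 and St3gal6 lie right of 0 in both comparisons with Rop7-II, B4galnt4 left of 0 in both, Hs3st3b1 right of 0 in both comparisons of Rop7-III, and the interval of Gcnt1 is the widest.

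The wider glycan pathway was read from 8 further lists with 122 genes, of which 79 were tested. Of these, 7 were higher and 8 lower in Rop7-III than Rop7-II, 2 higher and 3 lower in Rop7-III than Rop7-I, and 4 higher and 5 lower in Rop7-I than Rop7-II. Leaving out 1 library gave 11 to 16 in all in place of 15, 2 to 6 in place of 5, and 4 to 10 in place of 9. The lowest counts between Rop7-III and Rop7-I came without Rop7-I replicate 2 or 3 or Rop7-III replicate 1 or 3, with 2 each, and without Rop7-I replicate 1 or Rop7-III replicate 2, with 3 each. Between Rop7-I and Rop7-II they came without Rop7-I replicate 2 or 3, with 4 each, and without Rop7-I replicate 1 or Rop7-III replicate 1 or 2, with 5 each. The shares can be read beside the 12.3%, 4.85% and 7.53% of all genes. Their medians were 0.01, 0.01 and 0.00. In the test of any difference among the 3 clones 15 of 79 passed, against 14.1% of all genes.

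Of the other N-glycan genes, 11 of 16 were tested, with 2 higher and 1 lower in Rop7-III than Rop7-II. Man2a1, the mannosidase that trims the glycan before MGAT2 acts, was at 38.70 to 38.73 TPM for Rop7-I, 28.64 to 28.89 TPM for Rop7-II and 39.75 to 42.02 TPM for Rop7-III. It was lowest in Rop7-II in every library, and the difference of Rop7-III from Rop7-II was 0.50. Man2a2, its relative (0.33), and the early mannosidase Man1c1 (−0.83) also passed and were named after their values were seen. The Man1c1 difference passed in only 6 of 18 alternatives, and not on leaving out any 1 library (adjusted p of 0.0102 to 0.0312). B4galt1, which adds the galactose that sialyltransferases cap, was higher in Rop7-III than Rop7-I by 0.30, and did not pass without Rop7-I replicate 2 or 3 or Rop7-III replicate 1 or 3 (adjusted p of 0.0103 to 0.0123). Mgat3 and Mgat5b were listed at 0 in every library.

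Of the other sialyltransferases, 10 of 17 were tested, with 2 higher and 0 lower in Rop7-III than Rop7-II (limma; 4 at an unadjusted p under 0.05 in either direction). St8sia6, which adds sialic acid to sialic acid, was at 20.46, 27.03 and 24.74 TPM for Rop7-I, 9.57, 9.67 and 11.80 TPM for Rop7-II, and 37.37, 33.02 and 35.85 TPM for Rop7-III. The clones did not overlap, in the order seen for Mgat5 and St3gal6. The differences from Rop7-II were 1.69 for Rop7-III and 1.14 for Rop7-I. St8sia4, which builds polysialic acid, had the same order at smaller size, with differences of 0.52 and 0.34. The St8sia4 difference of Rop7-I did not pass without Rop7-I replicate 2 or 3 (adjusted p of 0.0152 and 0.0131).

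Of the O-glycan genes, 12 of 23 were tested, with 1 higher and 2 lower in Rop7-III than Rop7-II, all 3 of them Galnt genes. Galnt9 was at 10.52, 14.96 and 12.67 TPM for Rop7-I, 16.75, 21.71 and 20.88 TPM for Rop7-II, and 9.24, 6.68 and 7.60 TPM for Rop7-III. Its difference of −1.23 between Rop7-III and Rop7-II ran opposite to Mgat5. Galnt6 was also lower in Rop7-III, with differences of −0.45 from Rop7-II and −0.66 from Rop7-I. The first passed in only 7 of 19 alternatives, and was lost without any 1 library other than Rop7-II replicate 1 or 3, in a fit of the 2 clones only and with no filter, a common median or no trend (adjusted p up to 0.0357). The second was lost without any 1 library of Rop7-I or Rop7-III (0.0111 to 0.0142). Galnt7 (0.22 in Rop7-III against Rop7-II) and C1galt1c1, the chaperone of the core O-glycan enzyme (−0.40 in Rop7-III against Rop7-I), were named after their values were seen. Galnt7 passed in 5 of 19 alternatives, and on leaving out 1 library only without Rop7-III replicate 2 (adjusted p up to 0.0408). C1galt1c1 passed in 11 of 19, and not without any 1 library of Rop7-I or Rop7-III (up to 0.0259).

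Of the heparan sulfate genes, 16 of 28 were tested, with 1 higher and 1 lower in Rop7-III than Rop7-II. Extl3, which starts the chain, was 0.33 higher, and this was lost without Rop7-II replicate 2 or 3 or any 1 library of Rop7-III (adjusted p of 0.0103 to 0.0162). Hs6st1, another sulfotransferase of these chains, was the gene that was lower in Rop7-III, with differences of −0.46 from Rop7-II and −0.51 from Rop7-I, the opposite direction to Hs3st3b1. Of the sugar nucleotide genes, 15 of 16 were tested, again with 1 in each direction. Cmas, which activates sialic acid, was higher in Rop7-III than Rop7-II by 0.25, and Nans, which makes it, was lower, with a difference of −0.29.

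Of the Lewis, LacdiNAc and selectin-ligand genes, 3 of 8 were tested. B4galnt1, which makes gangliosides, was highest in Rop7-II, at 966 ± 15.1, 1179 ± 51.2 and 903 ± 26.5 TPM for Rop7-I, Rop7-II and Rop7-III (SD, n = 3). Its differences from Rop7-II were −0.38 for Rop7-III and −0.29 for Rop7-I, and both passed. Fut7, the fucosyltransferase of selectin ligands, was at 0.773 ± 0.301 TPM for Rop7-II and 1.53 ± 0.361 TPM for Rop7-III and did not pass (limma adjusted p = 0.0779). Of 4 sialidases, which remove sialic acid, Neu1 and Neu3 were tested. Neither passed in any pair, and their differences of Rop7-III from Rop7-II were 0.02 and 0.07. By limma 0 passed, beside 1 of the 2 at an unadjusted p under 0.05 in each comparison with Rop7-I.

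All 10 genes of the list of galectins and glycoprotein carriers were tested, and 2 passed between Rop7-III and Rop7-II, both lower: Spn, which encodes the heavily O-glycosylated CD43 (−0.28), and Cd8a (−0.39). The same 2 genes were lower in Rop7-I than Rop7-II, with differences of −0.33 and −0.22. The Cd8a difference of Rop7-I passed in only 5 of 19 alternatives: it was lost on leaving out any 1 library other than Rop7-II replicate 1, in a fit of the 2 clones only and with no filter, other scalings or no trend (adjusted p up to 0.0264). The galectin genes were named after their values were seen. Lgals3, the galectin best known for binding the MGAT5 branch and also a gene of myeloid cells, was at 4.59 to 10.30 TPM for Rop7-I, 50.91, 5.12 and 15.15 TPM for Rop7-II, and 5.14 to 6.88 TPM for Rop7-III. Its highest library was again Rop7-II replicate 1, and the difference of Rop7-III from Rop7-II of −1.36 (95% interval −2.77 to 0.04) did not pass. Lgals1, Lgals8 and Lgals9 did not pass in any pair either.

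**Figure D5:**
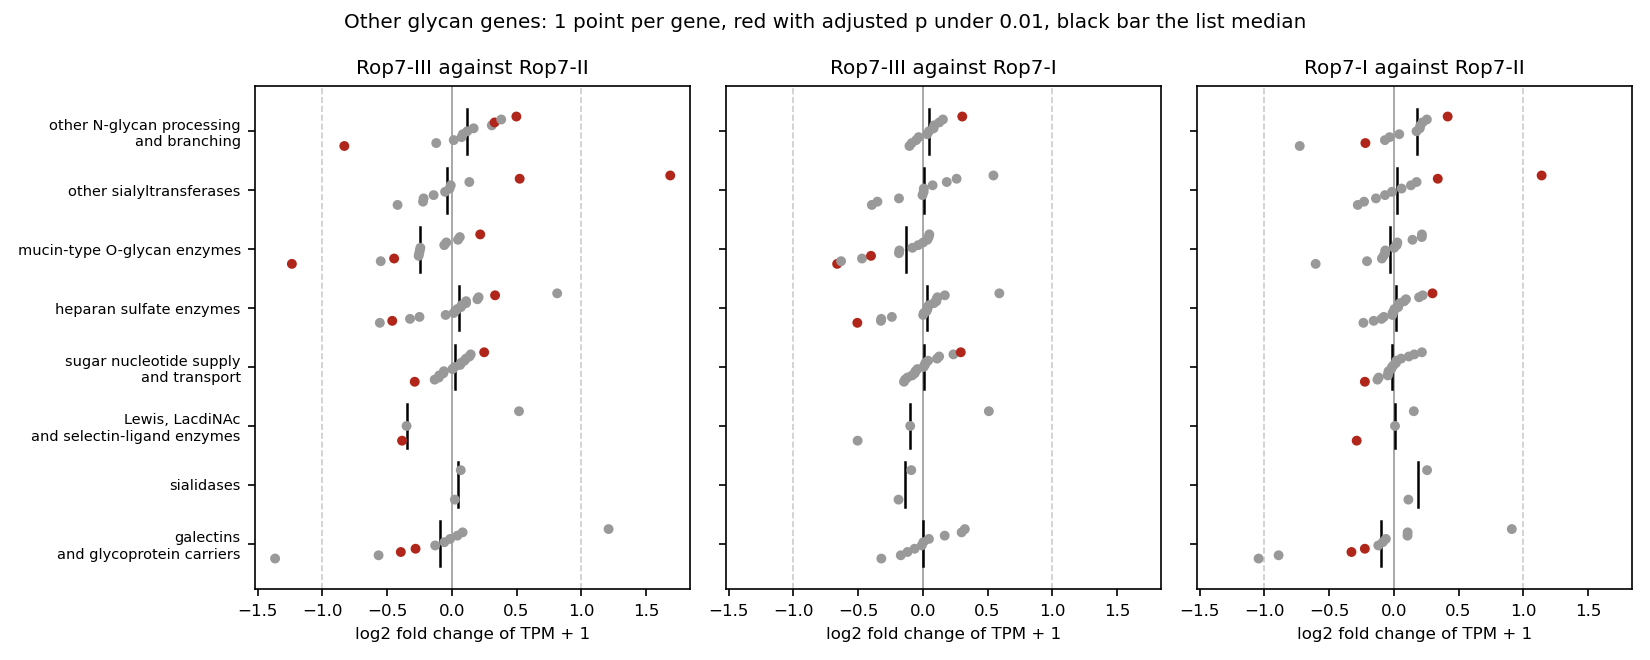
Difference in log2(TPM + 1) of each tested gene of the 8 further glycan lists in the 3 pairs of clones, a point per gene, red where the adjusted p was under 0.01, with a black bar for the list median and dashed lines at 2-fold. Most points lie between the dashed lines, and the red points beyond them are St8sia6 (1.69 and 1.14 against Rop7-II) and Galnt9 (−1.23).

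Over the 9 libraries the tested genes whose log2(TPM + 1) followed Mgat5 most closely were H2afy (Pearson r = 0.993), Rnf145 (0.993) and Rap1gds1 (0.989). Those nearest to St3gal6 were Nfu1 (0.984), Uba6 (0.978) and Oxct1 (0.974). Nipal1 (0.980), Rara (0.974) and Abhd14a (0.971) were nearest to B4galnt4, and Itm2a (0.978), Crtc3 (0.974) and Phf13 (0.970) to Hs3st3b1. The 9 libraries form 3 clones, so that libraries of a clone are not independent points for such values, and 153 to 341 tested genes had r above 0.9 with each of these 4 members.

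No gene that was called in any pair lay within 1 Mb of Mgat5, St3gal6 or Hs3st3b1, but only 10, 4 and 3 tested genes lay there. Mgat1 had 2 called of 22 tested neighbours, St3gal1 had 1 of 6 and St6gal1 had 1 of 10. B4galnt4 had 4 of 42. Of all tested genes, 1.70%, 1.06% and 0.949% were called in the 3 pairs. A neighbour was counted if it was called in any pair, and the share of all genes called in any pair was not computed. That share cannot be smaller than the largest of these values, so the neighbour counts cannot be set directly beside them. Of the B4galnt4 neighbours, Ifitm3, at 50.3 kb, was also lower in Rop7-III than Rop7-II (log2 difference −1.42, limma adjusted p = 0.00943). The other 3 neighbours, 5830411N06Rik, Cd163l1 and Olfr524, were higher in Rop7-III by 2.43, 2.27 and 1.16, opposite to B4galnt4. Reads were not strand-specific, and exons of Mgat5 and St3gal6 overlap genes on the opposite strand. These were Tmem163, at 0 to 2.88 TPM, for Mgat5 and Dcbld2, at 0.18 to 0.67 TPM, for St3gal6. Exons of Mgat2 and St6gal1 overlap Gm49383 and BC106179, which were not analysed here.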

How the data were processed

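Expression was measured by RNA-seq in 9 samples of unstimulated CD8 T cells, 3 per clone, grouped by the strain in their labels. The authors aligned and counted the reads with RSEM 1.2.11 (mm10) and deposited TPM per gene, a unit that corrects for length and sets all libraries to the same sum. The table holds no counts, so that the depth behind a value is unknown and no counting interval was computed. The authors' DESeq2 1.8.1 test of counts could not be repeated on TPM. Libraries summed to 1000000 to 1000001 TPM, with 11056 to 11494 genes above 1 TPM.

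Genes were analysed on the log2(TPM + 1) scale with R 4.3.3, and those with a maximum of 1 TPM or less were left out. The 3 pairs of clones, and any difference among the clones, were tested with limma 3.58.1 on the 9 samples together, letting the variance follow mean expression. Benjamini-Hochberg adjustment was made over 12115 genes. A gene passed at an adjusted p under 0.01 and was called if it was also 2-fold apart. The fit was tested on simulated data. Alternatives were other pseudocounts, filters, scalings and fits, and leaving out each sample.

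The members and lists were chosen with earlier results of these data known. All members were named, and of each further list the called genes and the 2 with the smallest adjusted p across clones; others are marked. Promoters came from RefSeq (GRCm38.p6), with windows for 9 of 10 members and none for St3gal1, and positions from GENCODE (GRCm38).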

Additional observations from a re-analysis of the deposited data

How the results depend on the processing

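Mgat5 in both comparisons with Rop7-II, and St3gal6 and Hs3st3b1 between Rop7-III and Rop7-II, kept their direction and an adjusted p under 0.01 in all 19 alternatives (log2 differences of 1.10 to 1.30, 0.87 to 1.06, 1.70 to 2.35 and 1.05 to 1.30). Counts of the 10 genes moved more. A fit of the 2 clones only gave 3 genes with an adjusted p under 0.01 between Rop7-III and Rop7-II in place of 6, and 2 in place of 4 between Rop7-I and Rop7-II, with 1 called in place of 2. Between Rop7-III and Rop7-I, 1 gene was called in place of 0 with a pseudocount of 0.1 or 0.5, a common median or quantile normalization, and 0 in place of 1 passed with no filter, no trend or a replicate block. Leaving out 1 sample gave 3 to 4 called and 4 to 5 passing genes between Rop7-III and Rop7-II, 0 to 3 and 1 to 3 between Rop7-I and Rop7-II, and 0 to 1 and 0 to 1 between Rop7-III and Rop7-I. The cause was not tested, except that fewer samples entered the fits of the 2 clones and those without a sample.

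No difference that changed sign had passed. With quantile normalization Mgat1 gave 0.00217 between Rop7-I and Rop7-II and 0.00242 between Rop7-III and Rop7-II, and Mgat2 gave 0.00102 between Rop7-III and Rop7-I and 0.00194 with a common median. On leaving out 1 sample, Mgat1 ranged from −0.0400 to 0.0215, −0.0363 to 0.0251 and −0.0209 to 0.0226 in these pairs, and Mgat2 from −0.0363 to 0.0193 between Rop7-III and Rop7-I. Mgat4a ranged from −0.00297 to 0.0777 between Rop7-I and Rop7-II, B4galnt4 from −0.0498 to 0.276 between Rop7-III and Rop7-I, and Gcnt1, whose differences were larger, from −0.110 to 0.986 between Rop7-I and Rop7-II and from −0.794 to 0.303 between Rop7-III and Rop7-II. Gcnt1 had no value where every sample had to reach 1 TPM.

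Replicate numbers were shared by the clones, and the labels do not say whether same-numbered samples share anything else. Deviations of same-numbered samples from their clone means had correlations of −0.388 to 0.107. With 3 samples per clone these cannot tell whether a day or batch was shared. With the replicate number as a block, adjusted p was 0.0126 for Hs3st3b1 between Rop7-III and Rop7-I, 0.0196 for St3gal1 between Rop7-I and Rop7-II and 0.0115 for St6gal1 between Rop7-III and Rop7-II. Fits of the wider glycan lists under every alternative were chosen after seeing the data: of 29 passing differences 0 reversed and 17 passed throughout. The other 12 were B4galt1, C1galt1c1 and Galnt6 between Rop7-III and Rop7-I, Extl3, Galnt6, Galnt7 and Man1c1 between Rop7-III and Rop7-II, and B4galt1, Cd8a, Extl3, Nans and St8sia4 between Rop7-I and Rop7-II. With no counts in the table, what depth limits is unknown.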
